A study of Mus musculus with 4 samples.

Results

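Ifng, Tnf, Il2, Il21, Lta and Csf2 encode effector cytokines that lymphocytes secrete once they are activated. They were taken by their symbols, with earlier results of these data known, and are 6 of the 31253 genes in the deposited count matrices. Live CD45+ cells, a sort that keeps leukocytes and microglia, had been taken from the tumor-bearing hemispheres of WT mice (C57Bl/6) and of CaMKK2 KO mice on the same background, which lack CaMKK2 from the germline on and therefore in all tissues. The mice were female and 8 to 12 weeks old at the start, and all 8, 4 per genotype, carried an orthotopic CT2a glioma for 14 days. The study asked how loss of CaMKK2, a kinase of calcium signaling, changes the immune cells of this tumor. The 4 mice of a genotype had been labeled with hashtag antibodies, pooled and loaded on 1 channel, so genotype and channel cannot be told apart.

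IFN-γ (Ifng) activates macrophages and raises antigen presentation, TNF (Tnf) and lymphotoxin-α (Lta) are related cytokines of inflammation and lymphoid organisation, IL-2 (Il2) and IL-21 (Il21) are growth and help factors that share the common γ receptor chain, and GM-CSF (Csf2) acts on myeloid cells. In T cells their genes are switched on after T-cell receptor signaling, through NFAT, AP-1, NF-κB and lineage factors such as T-bet, and their short-lived mRNAs are found in only part of the cells at any time. Macrophages and microglia also make TNF, and NK cells are a second main source of IFN-γ.

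In the mm10 build, Ifng (ENSMUSG00000055170) lies on the plus strand at chr10:118441046-118445892. The other 5 genes lie on the minus strand and include a pair of neighbors on each of chromosomes 17 and 3. Tnf (chr17:35199381-35202007) and Lta (chr17:35203165-35205351) are 1158 bases apart, and Il2 (chr3:37120523-37125959) and Il21 (chr3:37222759-37232636) are 96800 bases apart. Csf2 is at chr11:54247271-54249667. The 250 bases upstream of the RefSeq start (GRCm38.p6) are shown for Ifng, the gene with the most T-cell UMIs, and for Il21 and Lta, the members that edgeR called between genotypes in a lymphocyte class. Capitals mark each GGAAA or its reverse complement TTTCC, the core that NFAT proteins recognise, counted without overlaps.
Ifng, chr10:118440796-118441045, plus strand: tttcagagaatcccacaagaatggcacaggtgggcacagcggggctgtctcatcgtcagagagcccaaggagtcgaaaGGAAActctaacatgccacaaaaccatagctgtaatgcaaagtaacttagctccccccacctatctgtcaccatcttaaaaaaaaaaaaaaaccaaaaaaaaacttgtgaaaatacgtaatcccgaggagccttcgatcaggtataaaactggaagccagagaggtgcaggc
Il21, chr3:37232637-37232886, minus strand: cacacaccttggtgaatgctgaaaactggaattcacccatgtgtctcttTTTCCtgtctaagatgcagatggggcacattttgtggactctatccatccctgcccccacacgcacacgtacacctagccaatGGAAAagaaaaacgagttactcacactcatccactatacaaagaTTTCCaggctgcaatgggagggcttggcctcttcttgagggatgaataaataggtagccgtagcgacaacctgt
Lta, chr17:35205352-35205601, minus strand: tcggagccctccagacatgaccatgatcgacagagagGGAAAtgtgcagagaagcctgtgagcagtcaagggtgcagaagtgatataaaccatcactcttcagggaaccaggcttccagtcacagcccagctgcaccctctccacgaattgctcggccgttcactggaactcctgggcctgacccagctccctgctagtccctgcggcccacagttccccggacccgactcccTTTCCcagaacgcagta
The core was present 1 time upstream of Ifng, 2 times upstream of Lta, Il2 and Csf2, and 3 times upstream of Il21 and Tnf. Among 27025 RefSeq mouse promoters of the same length, 55.6% held it on either strand. The AP-1 motif TGANTCA was in none of the 6 windows and in 6.87% of all promoters, and the T-box motif TCACAC was in the Il21 window alone of the 6 and in 12.2% of all. These matches describe the letters only.

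The libraries held 6689 WT and 7271 CaMKK2 KO barcodes. After removal of hashtag doublets, unassigned barcodes, outlying cells and doublet calls, 5166 WT and 5692 CaMKK2 KO cells remained, with 1034 to 1428 and 1176 to 1680 cells per mouse and medians of 12662 and 11479.5 UMIs per cell. Among these kept cells, 8 barcode sequences occurred in both libraries. A UMI is a unique molecular identifier and stands for 1 captured mRNA molecule, and levels are given as CPM, a gene's UMIs per 1000000 UMIs of the cells taken. Camkk2 averaged 31.1 ± 5.14 CPM in WT mice (SD, n = 4) and 17.2 ± 4.09 in CaMKK2 KO mice, without overlap but above 0. Which part of the gene is deleted was not given in the sources used here, so the 3′ counts check the genotype only in part.

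Cells were classed from raw UMIs of marker genes, none of which is a member. The T-cell gate held 672 WT and 915 CaMKK2 KO cells, made up of 410 and 363 CD8 T cells, 49 and 259 conventional CD4 T cells (Foxp3 not detected), 121 and 177 regulatory T cells (Treg) and smaller γδ, unresolved and CD4 and CD8 groups. The NK gate held 594 and 843 cells, and the mononuclear phagocyte gate (MNP, macrophages, monocytes and microglia) 3283 and 3359. Medians of the gating markers were 26 Cd8 UMIs in the CD8 gate, 3 Cd4 UMIs in the CD4 gate, 4 Foxp3 UMIs in Treg cells, and 17 NK and 0 T-cell marker UMIs in the NK gate. The gates were set on these markers, so the medians describe them and are no independent check of the names. The CD4 gate was thin in WT mice, which gave 0, 18, 15 and 16 cells in mice 1 to 4, against 39, 109, 63 and 48 in CaMKK2 KO mice. It made up 5.83% ± 4.03 of WT and 30.0% ± 15.0 of CaMKK2 KO T cells (SD, n = 4 each, no overlap, two-sided exact permutation test, p = 0.0286, the smallest that 4 against 4 allows). WT mouse 1 gave only 36 T cells in all. Conventional CD4 T cells of WT mice were also shallower, with a median of 4745 UMIs against 7617.

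Most Ifng UMIs came from lymphocytes and most Tnf UMIs from phagocytes, while Il21 and Csf2 UMIs were mainly in T cells. Of 5960 Ifng UMIs over both genotypes, CD8 T cells held 39.7%, conventional CD4 T cells 33.1% and NK cells 21.1%, and MNP held 2.198%. Pooled over mice, Ifng stood at 711 CPM in conventional CD4 T cells, 239 in CD8 T cells, 84.5 in NK cells, 32.7 in Treg cells and 1.36 in MNP. The order is that of pooled counts, and the CD4 value leans on few cells, as described below.

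Tnf had 6981 UMIs, 86.6% of them in MNP and 6.68% in T cells. Microglia alone held 27.1% and had 176 CPM, against 48.4 in the other MNP and 49.0 in conventional CD4 T cells. The highest pooled Tnf level was that of 21 cells in the basophil and mast cell gate, at 313 CPM. Tnf was thus the member with the least of its mRNA in lymphocytes.

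Il21 had 112 UMIs in 40 cells, of which conventional CD4 T cells held 89.3% and T cells together 92.9%. Lta had 417 UMIs, with 31.9% in conventional CD4, 22.1% in CD8 T and 18.9% in NK cells. By CPM the order for Lta began with γδ T cells at 50.1 and conventional CD4 T cells at 47.9, and B cells stood at 11.6. Csf2 had 521 UMIs, and conventional CD4 T cells held 68.9% of them, CD8 T cells 11.7% and NK cells 7.87%.

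Il2 was sparse everywhere, with 227 UMIs in 203 cells. Conventional CD4 T cells had the highest level, 14.4 CPM, and 6.49% of them held an Il2 UMI. For a fixed depth, cells with at least 4000 UMIs were thinned to 4000 UMIs and the others were left out. Of the 271 conventional CD4 T cells that remained, 2.95% held an Il2 UMI. At that fixed depth CD8 T cells stood at 0.920%, NK cells at 0.477% and MNP at 0.450%, with unthinned values of 2.85%, 1.74% and 1.58%. MNP held 107 of the 227 UMIs, 47.1%, against 31.7% in T cells and 11.01% in NK cells. The part of RNA from other cells in these UMIs was not tested. For comparison, an Ifng UMI was present in 1.84% of MNP (median 13274 UMIs), 32.6% of NK cells (median 7235 UMIs) and 61.4% of CD8 T cells (median 11338 UMIs). Because the libraries read the 3′ end and genes differ in how well they are captured, levels are compared between classes and not between genes.

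**Figure D1:**
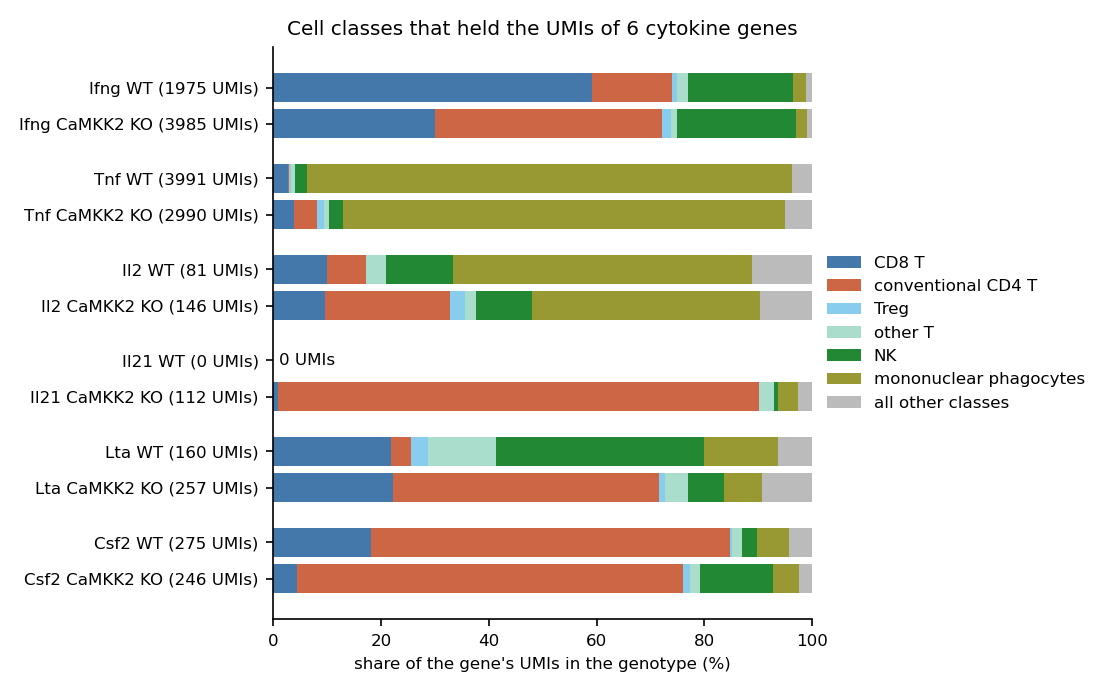
Share of each gene's UMIs (x axis, percent of its UMIs in that genotype) by cell class (colors), with 1 bar for each gene and genotype. Ifng is spread over CD8, CD4 and NK cells, Tnf is mostly in phagocytes (86.6% over both genotypes) and Il21 has 0 WT UMIs.

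Ifng, the activator of macrophages, was higher over all leukocytes together in CaMKK2 KO mice. The values were 2.98, 33.8, 46.1 and 26.9 CPM in WT mice 1 to 4 and 53.2, 71.5, 49.9 and 48.5 CPM in CaMKK2 KO mice 1 to 4. All CaMKK2 KO values lay above all WT values, with means of 27.4 ± 18.1 and 55.7 ± 10.7 (SD, n = 4 each, two-sided exact permutation test, p = 0.0286). With the outlying cells kept, the difference was 23.0 CPM and p was 0.143 by the same exact test, and without each CaMKK2 KO mouse in turn it was 0.0571. A level over all cells joins the number of cells of a class with their RNA, and T and NK cells made up 16.1% and 14.8% of CaMKK2 KO cells and 13.01% and 11.5% of WT cells.

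Within each class, the Ifng level of the genotypes overlapped or missed the threshold in the main fit, with all mice. In CD8 T cells it was 103, 302, 200.3 and 215 CPM in WT mice 1 to 4 and 383, 162, 154 and 283 in CaMKK2 KO mice 1 to 4. Neither genotype was consistently higher, and the log2 fold change of CaMKK2 KO over WT was 0.16 ± 0.26 (SE, edgeR quasi-likelihood test, Benjamini-Hochberg adjusted p = 0.879). In NK cells Ifng was 6.98, 56.6, 105 and 54.3 CPM in WT mice and 114, 185, 48.1 and 167 in CaMKK2 KO mice. CaMKK2 KO mouse 3 fell inside the WT range, and the NK log2 fold change was 1.14 ± 0.44 (edgeR adjusted p = 0.194, and 0.0196 without that mouse). That was the 1 of 8 fits with a mouse left out that passed, and edgeR adjusted p reached 0.540 in the others. In T cells together the log2 fold change was 0.68 ± 0.26 (edgeR adjusted p = 0.225) and in MNP 0.93 ± 0.28 at a level of 0.82 to 2.13 CPM (adjusted p = 0.134). Over all alternatives run for Ifng, 2 of 15 passed in NK cells and 1 of 16 in T cells together. In CD8 T cells 0 of 17 passed and in MNP 0 of 14.

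In conventional CD4 T cells the Ifng level did not pass the test, while the share of cells with an Ifng UMI was higher in CaMKK2 KO mice. The UMI counts were 0, 8, 283 and 4 in WT mice 1 to 4 and 91, 820, 488 and 281 in CaMKK2 KO mice 1 to 4. WT mouse 3 alone held most of the WT UMIs, 283 of 295, in 3 cells. The log2 fold change was -0.76 ± 0.69 with that mouse and 3.35 without it (edgeR, adjusted p = 0.759 and 0.00505), with WT mouse 1 absent from both fits for want of cells. Over the 15 alternatives run 2 passed, the fit without WT mouse 3 among them. A share of cells is less moved by 1 cell, and an Ifng UMI was found in 11.1%, 20.0% and 12.5% of the CD4 cells of WT mice 2 to 4 and in 41.0%, 60.6%, 44.4% and 41.7% of those of CaMKK2 KO mice 1 to 4. The groups did not overlap, with 14.5% ± 4.78 (n = 3) against 46.9% ± 9.21 (n = 4, two-sided exact permutation test, p = 0.0286, the smallest that 3 against 4 allows). Thinned to 4000 UMIs, the shares were 17.3% and 41.96% (exact permutation test, p = 0.0286). The thinned groups lay close, at 6.67% to 28.6% in WT and 31.4% to 51.4% in CaMKK2 KO mice, with only 34 WT cells left. Thinning left out the 15 of 49 WT and 22 of 259 CaMKK2 KO cells with fewer than 4000 UMIs. Thinned and unthinned shares are therefore not of the same cells. In the same exact test CD8 T cells gave 48.8% and 64.4% (p = 0.257), NK cells 26.5% and 38.8% (p = 0.257) and Treg cells 4.17% and 12.99% (p = 0.0571, and 0.0286 thinned). Shares were compared for 6 genes in 5 classes, 30 tests in all, and their p-values are unadjusted.

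**Figure D2:**
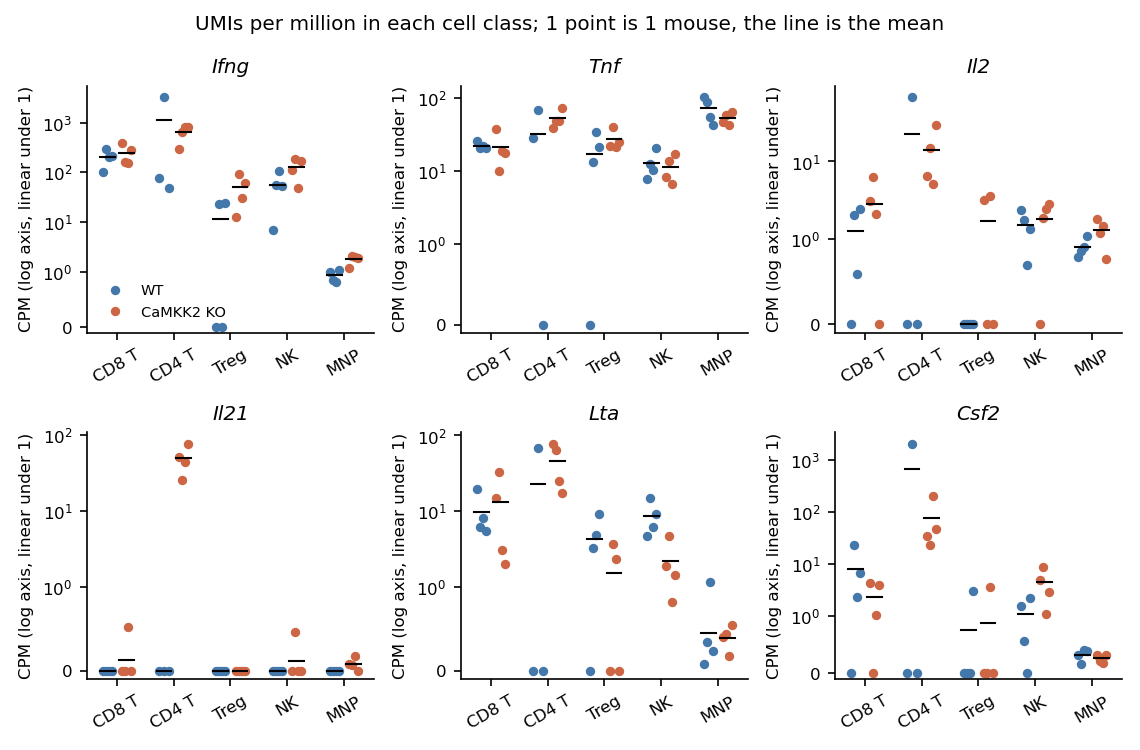
Level of each gene (y axis, CPM within the class, on a log axis that is linear under 1) by class for CD8 T, conventional CD4 T, Treg and NK cells and mononuclear phagocytes (MNP). Points are mice and the line is the mean. Il21 is at 0 in every WT mouse, and Lta in NK cells is at 4.65 to 14.9 in WT and 0.815 to 4.65 in CaMKK2 KO mice.

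Tnf passed no edgeR test in the 5 classes tested. In T cells its level was 17.9, 22.9, 24.8 and 22.9 CPM in WT mice 1 to 4 and 37.6, 34.3, 25.0 and 35.3 in CaMKK2 KO mice 1 to 4. The CaMKK2 KO values lay above the WT values in all 8 mice, though WT mouse 3 and CaMKK2 KO mouse 3 were nearly equal, and the log2 fold change of 0.49 ± 0.17 did not pass (edgeR, adjusted p = 0.178). In MNP, where most Tnf was, it was 102, 89.1, 55.3 and 43.0 CPM in WT and 46.9, 58.6, 41.95 and 64.5 in CaMKK2 KO mice, which overlap (log2 fold change -0.45, edgeR adjusted p = 0.358). In microglia the range was 81.0 to 301 CPM in WT and 63.7 to 187 in CaMKK2 KO mice. A Tnf UMI was found in 11.1% of WT and 6.07% of CaMKK2 KO NK cells (two-sided exact permutation test, p = 0.0286, and 0.0571 thinned). In conventional CD4 T cells the share went the other way, at 8.15% ± 7.14 in WT (n = 3) and 28.3% ± 5.31 in CaMKK2 KO mice (n = 4) without overlap (exact permutation test, p = 0.0286), and thinned it was 13.97% and 17.3% (p = 0.714).

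Lta, which forms lymphotoxin with itself or with lymphotoxin-β, was lower in NK cells of CaMKK2 KO mice. Its NK level was 4.65, 14.9, 6.23 and 9.20 CPM in WT mice 1 to 4 and 1.88, 4.65, 0.815 and 1.41 CPM in CaMKK2 KO mice 1 to 4. WT mouse 1 and CaMKK2 KO mouse 2 were nearly equal, and the counts were low, 62 WT and 17 CaMKK2 KO UMIs. The log2 fold change was -2.03 ± 0.50 (edgeR, adjusted p = 0.0363), and of the 10706 genes tested in NK cells 1.09% were called lower, 1.78% higher and 2.88% in either direction. Lta was the 1 member called among the 5 tested there. The share of NK cells with an Lta UMI was 4.95%, 7.74%, 4.38% and 4.98% in WT mice 1 to 4 and 1.74%, 1.76%, 0.694% and 1.01% in CaMKK2 KO mice 1 to 4. These shares did not overlap, with 5.51% ± 1.51 against 1.30% ± 0.535 (n = 4 each, two-sided exact permutation test, p = 0.0286), nor did they once thinned (2.71% and 0.399%, exact p = 0.0286). By edgeR the call was lost without WT mouse 2 or 4 or CaMKK2 KO mouse 1, 3 or 4 (adjusted p 0.0638 to 0.143), and limma on cells weighted equally gave 0.0628.

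The 44 NK cells with an Lta UMI differed in other genes, described here after their values were seen and with no test. Ltb, the membrane partner of lymphotoxin-α, was detected in 86.4% of them and in 48.0% of the 1393 other NK cells, and Tnfsf11 (RANKL) in 22.7% and 3.66%. The cytolytic genes went in both directions, with Gzma detected in 70.5% and 92.2% and Prf1 (perforin) in 95.5% and 89.2%, and the NK receptor gene Ncr1 was detected in 97.7% and 87.3%. Il7r was detected in 11.4% and 9.12%. The genotypes were pooled here, and of the 44 cells 33 came from the 594 WT and 11 from the 843 CaMKK2 KO NK cells. The Lta-positive cells were also deeper, with a median of 15830.5 against 7061 UMIs. The parts of genotype and of depth in these shares were not tested.

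In T cells Lta was 14.3, 5.96, 11.03 and 11.02 CPM in WT mice and 20.1, 46.2, 6.68 and 8.62 CPM in CaMKK2 KO mice, with a log2 fold change of 1.10 ± 0.52 (edgeR, adjusted p = 0.332). CaMKK2 KO mouse 2 was the highest and the groups overlapped.

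Il21, the helper and growth factor for B and CD8 T cells, was counted only in CaMKK2 KO mice. T cells of WT mice 1 to 4 held 0 Il21 UMIs each, and those of CaMKK2 KO mice 1 to 4 held 16, 32, 27 and 29 UMIs. All CaMKK2 KO mice therefore had it, in 4, 11, 10 and 8 T cells, and the UMIs were not from a few cells, with 3.23 UMIs per positive CD4 cell, at most 9 in a cell and 24.0% in the 3 highest. Pooled over the T cells of each genotype and set against the 3 counts that 0 allows in WT mice, Il21 was at least 24.5-fold higher in CaMKK2 KO T cells. The genotype comparison passed in T cells (edgeR, adjusted p = 0.00422), where 1.15% of the 11099 genes tested were called higher, 0.703% lower and 1.86% in either direction, and it passed in each of the 15 alternatives run (adjusted p 2.60e-09 to 0.0239). It was the 1 member called among the 6 tested.

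The part of this difference that lies in the number of CD4 cells and the part that lies within them were set side by side for Il21. In conventional CD4 T cells it was detected in 0 of 49 WT cells, which allows a share of up to 6.12%, and in 31 of 259 CaMKK2 KO cells, 11.97% (exact binomial 95% interval 8.28% to 16.6%, which like every such limit here covers counting error only). By mouse the share was 10.3%, 10.1%, 14.3% and 14.6% in CaMKK2 KO mice 1 to 4. The means were 0 (n = 3) and 12.3% ± 2.46 (n = 4, two-sided exact permutation test, p = 0.0286), and thinned they were 0 and 8.004% ± 6.25 (exact p = 0.143). The pooled level in CD4 cells was at least 3.67-fold higher against the same 3 counts, and edgeR gave an adjusted p of 0.121 with 0.166% of 8455 genes called higher, 0.237% lower and 0.402% in either direction. Of the 15 alternatives run for Il21 in CD4 cells 3 passed, 0 of them with a mouse left out. In CD8 T cells Il21 had 1 UMI in 1 CaMKK2 KO cell. The genotype difference on the log2(CPM + 10) scale was larger in CD4 than in CD8 T cells by 2.48 for Il21 (3 against 4 mice, two-sided exact permutation test, p = 0.0286, 1 of 6 genes compared). Its size depended on the setting, from 0.962 to 2.55 over the 5 alternatives that kept all mice. For Ifng the same difference of differences was 1.31 (exact p = 0.514), and the other 4 genes also missed the threshold.

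Among the CaMKK2 KO CD4 cells, the 31 with an Il21 UMI were compared with the 228 without, again after their values were seen and with no test. Tnfsf8 (CD30 ligand) was detected in 67.7% and 24.1%, Cd40lg (CD40 ligand, the contact signal of helper cells) in 58.1% and 36.4%, and the AP-1 family factor Batf in 74.2% and 47.4%. Other helper-cell genes differed less, with Maf at 83.9% and 75.4% and Bcl6 at 12.9% and 8.33%. Icos went the other way, at 80.6% and 89.5%. The positive cells had a median of 11661 UMIs against 7446, and the part of depth in these shares was not tested.

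Il2, the T-cell growth factor, was higher over all leukocytes of CaMKK2 KO mice at very low levels. Its level was 0.905, 1.20, 1.26 and 1.22 CPM in WT mice 1 to 4 and 1.99, 2.45, 1.90 and 1.89 CPM in CaMKK2 KO mice 1 to 4. The groups did not overlap (1.14 ± 0.161 against 2.05 ± 0.265, n = 4 each, two-sided exact permutation test, p = 0.0286), and with the outlying cells kept p was 0.457. As given above, T cells held fewer of its UMIs than MNP did. In T cells the counts were 0, 3, 10 and 4 UMIs in WT and 9, 25, 10 and 11 in CaMKK2 KO mice (edgeR, log2 fold change 1.27 ± 0.56, adjusted p = 0.294). The share of T cells with an Il2 UMI was 1.41% and 4.46% (exact permutation test, p = 0.0286), and after thinning p was 0.229.

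Csf2, which supports myeloid cells, was carried by few cells in both genotypes. Its highest T cells in CaMKK2 KO mice held 65, 39 and 21 UMIs, among 37 with a UMI. Its T-cell level was 0, 17.4, 85.9 and 7.20 CPM in WT mice 1 to 4 and 8.78, 11.6, 35.1 and 16.4 in CaMKK2 KO mice 1 to 4. The highest WT value came from 1 CD4 cell of mouse 3, which held 183 Csf2 UMIs, 76.6% of all Csf2 UMIs in WT T cells, together with 170 Ifng UMIs among its 23383. The log2 fold change in T cells was -0.83 ± 0.63 with that mouse and 0.77 without it (edgeR, adjusted p = 0.587 and 0.586). The share of T cells with a Csf2 UMI was 2.31% (WT) and 4.10% (CaMKK2 KO), which a two-sided exact permutation test did not separate (p = 0.2), and thinned it was higher by 2.26 percentage points (p = 0.0286). In CD8 T cells, where 0.65% of 10152 genes were called higher and 0.591% lower (1.24% in all), and in MNP, where 0.76% of 13423 were called higher and 1.01% lower (1.77% in all), no member was called by edgeR. In CD8 T cells the lowest adjusted p among the members was 0.222 for Csf2 (log2 fold change -2.09 ± 0.76), and in MNP it was the 0.134 of Ifng. These are the main fits. Csf2 passed in 2 of 15 alternatives in CD8 T cells and in 1 of 15 in conventional CD4 T cells, 0 of them with a mouse left out.

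**Figure D3:**
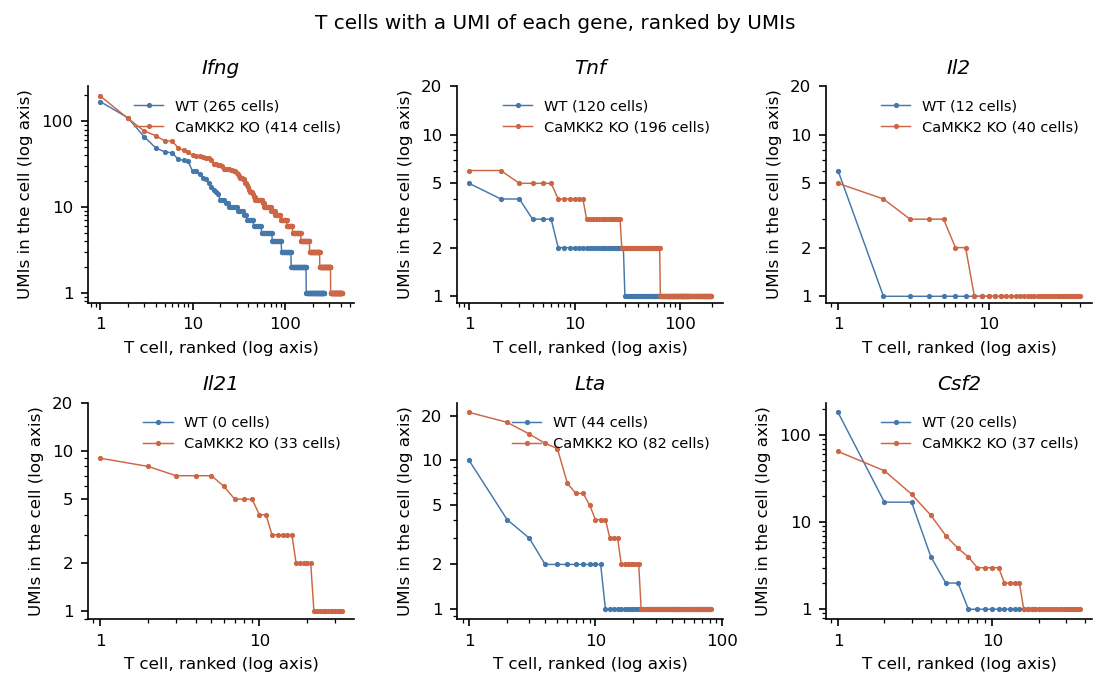
T cells with at least 1 UMI of each gene, ranked from the highest count (both axes log, x rank of the cell, y UMIs of the gene in the cell). The first WT point of Csf2 is the cell with 183 UMIs, and Il21 has no WT points.

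**Figure D4:**
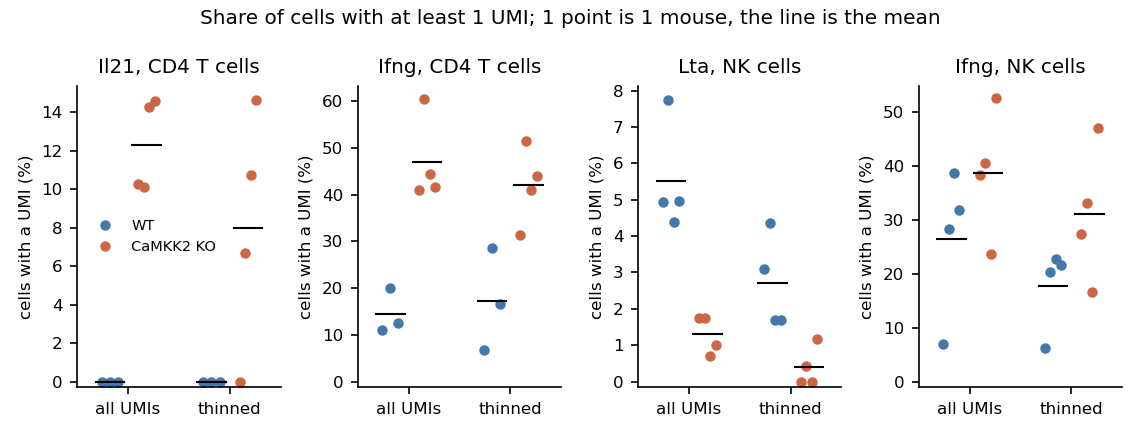
Percent of cells with at least 1 UMI (y axis) of Il21 and Ifng in conventional CD4 T cells and of Lta and Ifng in NK cells. The x axis gives all UMIs, and cells thinned to 4000 UMIs with shallower cells left out. Points are mice and the line is the mean. CaMKK2 KO mice lie above WT mice for Ifng in CD4 cells (41.0% to 60.6% against 11.1% to 20.0% with all UMIs) and below them for Lta in NK cells.

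Most T cells with a UMI of any member held only 1 of the 6, 272 of 361 in WT and 328 of 530 in CaMKK2 KO mice. In CaMKK2 KO T cells, 23 of the 33 cells with an Il21 UMI also held an Ifng UMI, 69.7%, and 16 held a Tnf UMI. Of all 915 CaMKK2 KO T cells, 414 held an Ifng UMI and 196 a Tnf UMI. Among CaMKK2 KO CD4 cells, which were deeper where Il21 was detected, Ifng was found in 67.7% with and 47.8% without an Il21 UMI. Tnf was found in 51.6% and 26.3% of them. Of the 259 CaMKK2 KO conventional CD4 T cells, 92 held 2 or more of the 6 cytokines, 35.5%, against 1 of 49 in WT mice. These counts are pooled over mice with all UMIs, and the WT cells were shallower (median 4745 against 7617 UMIs). The difference between genotypes was not tested at a fixed depth. None of the 259 held all 6. Because depth gives any deep cell more genes, co-detection with Ifng was tested at 4000 UMIs per cell. T cells with and without an Ifng UMI were compared within each mouse. Csf2 was detected in 3.76% ± 2.11 of Ifng-positive and 1.20% ± 1.39 of Ifng-negative T cells, higher in 7 of 8 mice (two-sided exact sign-flip permutation test over mice, p = 0.0156, unadjusted over 5 genes), and with all UMIs p was 0.0625. Tnf stood at 19.1% and 9.93% (exact p = 0.156), Lta at 4.82% and 3.15% (exact p = 0.195) and Il2 at 0.564% and 1.37% (exact p = 0.156). Il21 stood at 3.20% and 0.518% (exact p = 0.25), means that include the WT mice. WT T cells held 0 Il21 UMIs, so only CaMKK2 KO mice could differ, too few for this test to pass. It therefore decides nothing for Il21. Pooled over mice, Il21 was detected in 15 of 453 Ifng-positive and 5 of 992 Ifng-negative T cells. With all UMIs Tnf differed, at 32.9% and 13.5% (exact p = 0.0156).

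Within CD8 T cells, Ifng was found more often in cells with a marker of late differentiation. Havcr2 encodes TIM-3 and marks terminally differentiated or exhausted cells, and Tcf7 encodes TCF-1 and marks stem-like and memory cells. At 4000 UMIs an Ifng UMI was found in 42.1% ± 17.1 of Havcr2-positive Tcf7-negative cells and in 6.43% ± 7.21 of Tcf7-positive Havcr2-negative cells, higher in 6 of the 6 mice with enough cells of both (two-sided exact sign-flip permutation test, p = 0.0313, the smallest 6 mice allow). With all UMIs it was 66.3% and 19.1%, higher in 8 of 8 mice (exact p = 0.00781). Tnf stood at 15.2% and 14.0% thinned (exact p = 0.938), and at 21.5% and 8.93% with all UMIs (exact p = 0.0156). Only 3 of the 41 thinned Tcf7-positive cells held Ifng, so that share is known only roughly.

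The receptors for these cytokines gave no edgeR call. Of 12 receptor genes, all 12 were tested in T cells, in NK cells and in MNP, and 0 were called in each. An unadjusted p under 0.05 was found for 0, 2 and 4 of them, beside 15.5%, 15.9% and 19.8% of all genes tested in the same classes. Their median log2 fold changes were 0.11, 0.21 and 0.20 beside medians over all genes of 0.08, 0.06 and -0.12. In MNP the closest was Il2rb, a signaling chain of the IL-2 receptor, at 3.81 CPM (WT) and 6.38 CPM (CaMKK2 KO; log2 fold change 0.74 ± 0.18, edgeR adjusted p = 0.0746), and in NK cells Ifngr1, the ligand-binding IFN-γ receptor chain, at 625 and 908 CPM (0.53 ± 0.15, adjusted p = 0.0728). DESeq2 called 2 receptor genes higher in MNP and 1 lower in CD8 T cells, and limma called 0 in these classes. Of all genes, DESeq2 called 455 of 13423 higher in MNP and 66 of 10152 lower in CD8 T cells. Without CaMKK2 KO mouse 3, edgeR called 2 of 11 higher in NK cells (Ifngr1 and Il2rb), beside 632 of all 10350 genes tested. In CD8 and conventional CD4 T cells 10 and 8 receptor genes were tested, 0 were called by edgeR, 2 and 1 had an unadjusted p under 0.05 (12.9% and 10.2% of all genes), and the medians were 0.08 and -0.20 beside 0.05 and 0.00. Scaling by TMM moved the median of all genes to -0.02 in MNP and to 0.12 in conventional CD4 T cells, so fold changes there are read against those medians.

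Of 22 transcription and RNA decay regulators, among them the genes of T-bet, Eomes, NFAT and Zfp36 proteins, 22 were tested in T cells and 21 in NK cells, and edgeR, DESeq2 and limma called 0 in both. The medians were 0.13 and 0.11, and 6 and 4 genes had an unadjusted p under 0.05, beside the 15.5% and 15.9% of all genes. The NK count was 4 higher without CaMKK2 KO mouse 3, 1 without WT mouse 3, 3 with the outlying cells kept, 1 under the stricter gate and 4 with no filter on low counts. In the same order, 632 of 10350, 113 of 10592, 368 of 11050, 220 of 10678 and 474 of 15406 genes were called higher. The T-cell count was 1 higher without CaMKK2 KO mouse 1 or mouse 3 and 4 with no filter, beside 88 of 10888, 115 of 10750 and 391 of 16182 genes. The closest in T cells was Maf, a factor of helper T cells that make IL-21, at 199.8 CPM (WT) and 407 CPM (CaMKK2 KO), without overlap (log2 fold change 0.94 ± 0.24, edgeR adjusted p = 0.0628). Prdm1, which encodes BLIMP-1, was next, at 35.5 and 53.8 CPM (0.57 ± 0.16, adjusted p = 0.0877), and Bcl6, the factor of follicular helper T cells, stood at 1.504 and 7.49 CPM (1.82 ± 0.69, adjusted p = 0.215). In CD8 and conventional CD4 T cells 21 and 20 regulators were tested and 0 were called by edgeR, DESeq2 or limma, with medians of -0.14 and -0.24 and 8 and 3 at an unadjusted p under 0.05. Without CaMKK2 KO mouse 3, 2 were called higher in CD8 T cells, and in conventional CD4 T cells 1 was called lower without CaMKK2 KO mouse 4 (Maf) and 1 with the outlying cells kept (Zfp36l2). Of all genes, 72 of 9860, 23 of 8190 and 23 of 8895 were called in the same direction in these fits. Maf in that fit and Zfp36l2 were named after their values were seen.

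Among 23 other lymphocyte cytokines and chemokines, 16 were tested in T cells and 2 rose, 0 fell, beside 1.15% and 0.703% of all genes. The median log2 fold change was 0.69 against 0.08. Tnfsf8 rose by 1.47 on the log2 scale (edgeR, adjusted p = 0.0424) and Cd40lg by 2.08 (adjusted p = 0.0477). DESeq2 called 1 of the 16 higher, beside 78 of all 11099 genes, and limma 0. The count was also 0 without WT mouse 2, 3 or 4 or CaMKK2 KO mouse 2 or 4, with the outlying cells kept and at 200 UMIs. It was 1 without WT mouse 1 (Tnfsf8) or CaMKK2 KO mouse 1 (Cd40lg), and 4 without CaMKK2 KO mouse 3. In these fits 112 of 11070, 88 of 10888 and 115 of 10750 genes were called higher. Cd40lg was 0, 3.97, 7.81 and 4.66 CPM in WT mice 1 to 4 and 12.97, 43.4, 10.3 and 24.1 CPM in CaMKK2 KO mice 1 to 4, without overlap. Tnfsf8 was 68.1, 14.4, 22.1 and 16.5 CPM in WT and 47.7, 75.7, 36.2 and 80.1 in CaMKK2 KO mice, so WT mouse 1, with 36 T cells, overlapped. In conventional CD4 T cells neither was called (Tnfsf8 0.48, adjusted p = 0.647, Cd40lg -0.16, adjusted p = 0.936), while the CD4 share of T cells differed as given above.

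In NK cells 12 of the 23 were tested, 2 rose and 3 fell, beside 1.78% and 1.09% of all genes. Their median was -0.18 against 0.06. Ltb fell by 0.77 on the log2 scale (edgeR, adjusted p = 0.000522), from 273, 294, 321 and 350 CPM in WT mice 1 to 4 to 183, 173, 192 and 179.6 CPM in CaMKK2 KO mice. Every WT mouse lay above every CaMKK2 KO mouse. Tnfsf11 fell by 1.71 (adjusted p = 0.0276) and Lif, a cytokine of the IL-6 family, by 2.19 (adjusted p = 0.0466). DESeq2 called 1 higher and 2 lower, and limma 1 in each direction. Of all 10706 genes, DESeq2 called 139 higher and 136 lower, and limma 127 and 78. Ltb and Ccl5 were called whichever mouse was left out, while Tnfsf11 was called in 2 of these 8 fits (WT mouse 3 or CaMKK2 KO mouse 3 left out), Ccl4 in 2 (WT mouse 2 or CaMKK2 KO mouse 3) and Lif in 1 (WT mouse 1). In the comparison with all mice, the chemokines Ccl5 and Ccl4 rose by 1.86 and 2.03 (adjusted p = 0.00632 and 0.0426), although CaMKK2 KO mouse 3 lay within the WT range for both. In CD8 T cells 1 of 12 fell, Ccl1, by 4.49 (adjusted p = 0.00986, overlapping and not called by DESeq2), beside 0.591% of all genes. In conventional CD4 T cells 1 of 15 rose, Ccl1, by 4.69 (adjusted p = 0.00281, not called without WT mouse 2 or 4), and 1 fell, Ccl5, by 1.45 (adjusted p = 0.000732). There 0.166% of all genes were called higher and 0.237% lower.

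Markers of other cells were read in the same classes. The 8 genes were of phagocytes, antigen presentation and B cells, with the NK marker Ncr1 among them. Their summed level in T cells ranged from 700.4 to 846 CPM in WT and 355 to 1352 CPM in CaMKK2 KO mice. In NK cells it ranged from 784 to 1221 and from 643 to 955, sums that include Ncr1, a marker of the NK gate itself. Of 7 tested in T cells, 1 was called higher (Cd74, by 1.87) and 1 lower (Apoe, 368 against 32.4 CPM), and of 7 in NK cells 0 were higher and 3 lower (Apoe, C1qa and C1qb). In CD8 T cells 2 of 6 were lower (Apoe and C1qb), and in conventional CD4 T cells 1 of 6 was (Apoe), with 0 higher in both. These counts stand beside the shares of all genes called, as given above. In WT conventional CD4 T cells Cd79a was at 0. The part of this RNA in the cytokine values was not tested. MNP held 4 Il21 UMIs, all of them in CaMKK2 KO mice. WT cells of every class held 0, so the WT MNP carry no information on free Il21 RNA.

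Genes that IFN-γ is known to induce were examined in MNP. Of 12 such genes 11 were tested, 1 rose and 0 fell, beside 0.76% and 1.01% of all genes. The median log2 fold change was 1.39 against -0.12 over all genes, and 10 had an unadjusted p under 0.05, beside 19.8% of all genes. Ciita, the master regulator of MHC class II, rose by 2.05 (edgeR, adjusted p = 0.0334), from 17.7, 60.1, 77.3 and 78.4 CPM in WT mice 1 to 4 to 226, 267, 201 and 276 CPM in CaMKK2 KO mice 1 to 4. The groups lay well apart, and the call was lost without WT mouse 2, 3 or 4 or CaMKK2 KO mouse 1, 2 or 4. DESeq2 called 5 of the 11 higher, beside 455 of all 13423 genes, and limma 1, beside 107 of them. Cxcl9, a chemokine for CXCR3-bearing T cells, was 11.9, 351, 762 and 306 CPM in WT and 1094, 2614, 781 and 3246 CPM in CaMKK2 KO mice. CaMKK2 KO mouse 3 lay close to the highest WT mouse. Of 7 cytokines that induce IFN-γ, 0 were called in MNP, with a median of 0.59 and 2 at an unadjusted p under 0.05. DESeq2 called 2 higher, limma 0 and edgeR 1 without CaMKK2 KO mouse 3, a fit that called 157 of 13219 genes higher. Il12a, a chain of IL-12, was the closest, at 0.121 CPM (WT) and 1.10 CPM (CaMKK2 KO; log2 fold change 3.05 ± 0.65, edgeR adjusted p = 0.0530).

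**Figure D5:**
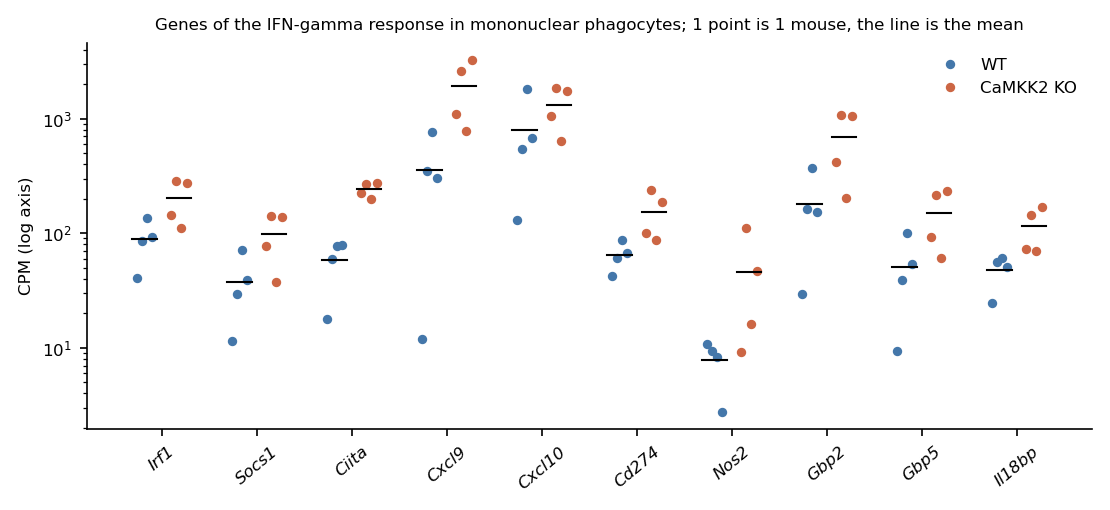
Level of 10 of the IFN-γ-induced genes (x axis) in mononuclear phagocytes (y axis, log axis, CPM), with 1 point per mouse and a line at the mean. For Ciita the 4 CaMKK2 KO mice, at 201 to 276 CPM, lie above the 4 WT mice, at 17.7 to 78.4 CPM.

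The genes whose level most resembled each member across classes were ranked by Pearson's r of log2(CPM + 10) over 23 class and genotype points, which share libraries and depth. Rgs16 (r = 0.93) was nearest to Ifng, P2rx7 (0.87) to Tnf, Cd40lg (0.90) to Il2, Bdh2 (0.87) to Il21, Tnfsf11 (0.84) to Lta and Lgals7 (0.92) to Csf2. Il2 and Csf2 were each other's second nearest gene (r = 0.86). These are descriptions, with no test.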

How the data were processed

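The deposited files hold raw UMI counts per gene and barcode with 4 hashtags per library, which the authors made with bcl2fastq 2.20, Cell Ranger 4.0.0 and STAR 2.7.5c on mm10, per the labels. Here barcodes were assigned to mice with HTODemux (Seurat 5.3.0, quantile 0.99), and cells with fewer than 200 genes, cells beyond 3 median absolute deviations in mitochondrial share, UMIs or genes (isOutlier, scuttle 1.12.0; 744 WT and 922 CaMKK2 KO cells) and a further 59 and 78 Scrublet calls (scanpy 1.11.5) were removed, leaving 12195858 to 20567416 UMIs per mouse.

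A cell joined the class whose marker panel had at least 2 UMIs and at least 2 times those of the next panel. CD8 and CD4 T cells were split by a ratio of 2, Treg cells by 1 Foxp3 UMI, and microglia needed 10 UMIs of their markers. These thresholds were set after values were seen, and the members and gene lists were chosen with earlier results of these data known.

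For each mouse and class the UMIs were added up, and genes with at least 20 UMIs were tested with the edgeR 4.0.16 quasi-likelihood test on total UMIs, with Benjamini-Hochberg adjustment over all genes and calls at 0.05. Values of the mouse as a whole and shares of cells were compared with exact permutation tests, also with cells thinned to 4000 UMIs. Thinning took only cells with at least 4000 UMIs and left the others out. The edgeR test was run on simulated counts that gave all genes the same dispersion. Genes with most UMIs in a few cells, such as Csf2 in WT T cells, were not simulated, so that check does not cover them. Alternatives used TMM, DESeq2 1.42.0, limma 3.58.1 (log2 of CPM + 1), other filters and gates, and each mouse left out. The p-values measure the spread between mice. The conventional CD4 comparison had 3 WT mice, since WT mouse 1 had no such cell. Genes named from a list are those called, lowest p first, then the next by p, and for each member the genes with the most similar pattern. Some named afterwards were chosen after their values were seen, as said there. Values of some genes on the lists are not reported here.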

Additional observations from a re-analysis of the deposited data

Results flagged for a closer look

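In 5 of 61 groups of 4 mice, 1 mouse stood far from the others of its genotype by Dixon's test at the 95% level, which chance flags in about 1 in 20 groups of normally distributed values. The counts here are sparse, and for Il21 a single UMI beside 0 in the other 3 mice is enough. The Il2 level over all cells was 0.905 CPM in WT mouse 1 and 1.20 to 1.26 CPM in the other WT mice. The Csf2 level over all cells was 11.4 CPM in WT mouse 3, where 1 cell held most of its UMIs, and at most 2.28 CPM in the other WT mice. In conventional CD4 T cells Csf2 was 203 CPM in CaMKK2 KO mouse 3 and at most 47.0 CPM in the other CaMKK2 KO mice. Il21 in CD8 T cells was 0.516 CPM in CaMKK2 KO mouse 3 and 0 in the others, and in NK cells 0.465 CPM in CaMKK2 KO mouse 2 and 0 in the others, each from 1 UMI.

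The Il21 genotype difference was larger in conventional CD4 than in CD8 T cells by 2.48 on the log2(CPM + 10) scale (two-sided exact permutation test over 3 WT and 4 CaMKK2 KO mice, p = 0.0286, higher in 4 of 4 CaMKK2 KO mice). Over the 5 alternatives that kept all mice it was 0.962 to 2.55.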

How the results depend on the processing

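The Il21 difference in T cells (edgeR) and over all cells, and the lower share of NK cells with an Lta UMI, passed under each alternative run. The T-cell and conventional CD4 T-cell shares of Il21 did not pass once cells were thinned. Cell numbers limit the other results: WT mice gave 49 conventional CD4 T cells, rare genes rest on few UMIs, and 1 channel per genotype leaves no test of channel. No paired analysis was possible because the hashtag numbers only name the mice and pair none of them across genotypes. The causes of the changes listed here were not tested.

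With the outlying cells kept, the level over all cells differed by 23.0 CPM for Ifng (p = 0.143, exact permutation test) and 0.478 CPM for Il2 (p = 0.457), and the log2 fold changes turned to -0.51 for Il2 in T cells and to -0.39, -0.066 and -1.65 for Ifng, Tnf and Il2 in CD8 T cells. Thinning cells gave T-cell share differences of -0.434 points for Tnf, 0.707 for Il2, 2.85 for Il21 and 2.26 for Csf2, and asking for 2 UMIs gave 0.875 for Il2. With all UMIs, co-detection with Ifng differed by 19.4 points for Tnf and 2.87 for Csf2, and the CD8 state difference of Tnf was 12.5. Under the stricter gate the CD8 state differences were 34.1 for Ifng (5 of 6 mice higher) and -0.0992 for Tnf.

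For the CD4 against CD8 difference, Il2 gave -0.25 under the stricter gate, -0.10 with a pseudocount of 50 CPM and -0.033 with no UMI of the other coreceptor, and Csf2 gave -0.45 with that pseudocount, 3.52 with no UMI of the other coreceptor and 3.11 without the T cell highest in each gene. The last 2 alternatives were chosen after the data were seen. Without those top cells the Csf2 level over all cells differed by 1.21 CPM, Csf2 gave 0.72 in T cells and 7.26 in CD4 cells, and Il2 gave 5.34 in CD4 cells. With no UMI of the other coreceptor, Ifng gave 0.048 and Csf2 8.01 in CD4 cells. Limma on cells weighted equally gave 0.90 for Csf2 in T cells, -0.29 for Tnf and -0.15 for Lta in CD8 T cells, 1.55, 1.62 and 2.53 for Ifng, Il2 and Csf2 in CD4 cells, and 0.030 for Csf2 in MNP.

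The number of genes called was 206 in T cells, 126 in CD8, 34 in CD4, 308 in NK cells and 238 in MNP. Asking for 200 UMIs gave 89 in T, 57 in CD8 and 19 in CD4 cells. With no filter it was 546 in T, 435 in CD8, 148 in CD4 and 719 in NK cells. Limma gave 62 in T, 22 in CD8 and 205 in NK cells. DESeq2 gave 783 in MNP, keeping outlying cells 568 in NK cells, and leaving out the top T cells 61 in CD4 cells. The share of calls that were higher in CaMKK2 KO mice was 62.1% in T cells, and 41.7% under TMM and 38.2% under DESeq2. It was 62.0%, 51.9% and 50.5% in NK cells, 42.9%, 52.7% and 58.1% in MNP, and 41.2% and 52.4% (TMM) in CD4 cells.

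Leaving out each mouse in turn, the genes called ranged from 64 to 195 in T cells, 60 to 135 in CD8, 11 to 41 in CD4, 129 to 898 in NK cells and 115 to 404 in MNP. The level over all cells differed by 20.2 to 34.5 CPM for Ifng and -1.76 to 1.89 for Csf2 (positive without WT mouse 3). Share differences in T cells ranged from 2.12 to 3.51 points for Il2, 3.27 to 4.59 for Il21 and 1.03 to 2.98 for Csf2. Co-detection differences ranged from 2.50 to 11.8 for Tnf and 1.00 to 2.45 for Lta, and the CD8 state difference of Tnf from -1.57 to 4.68. The CD4 against CD8 difference ranged from -0.49 to 1.10 for Il2 and -0.91 to 3.66 for Csf2. Log2 fold changes ranged from -1.53 to 0.77 for Csf2 in T cells, from -0.18 to 0.38 and -0.41 to 0.29 for Ifng and Tnf in CD8 T cells, from -1.33 to 3.35, -1.35 to 5.63 and -4.41 to 8.13 for Ifng, Il2 and Csf2 in CD4 cells (the upper ends without WT mouse 3), and from -0.54 to 0.83 for Lta in MNP.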
